A study of Mus musculus with 4 samples.

Results

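Cultured mouse lung endothelial cells that carried a non-targeting control siRNA were compared with and without dexamethasone, a synthetic glucocorticoid. Every gene with at least 1 FPKM (sequenced fragments scaled by transcript length and by library size) in either of these 2 conditions was included, which gave 11227 of the 23997 genes in the deposited table. The table covers 4 samples. All were lung endothelial cells of the C57BL/6 mouse strain grown in EBM-2 medium with 10% serum. The untreated cells received control siRNA for 48 h and no dexamethasone. The treated cells received the same control siRNA for 48 h and 100 nM dexamethasone (DEX) for 18 h. The other pair received siRNA against the glucocorticoid receptor (GR) for 48 h, either alone or with 100 nM DEX for 18 h, and is used here only to set values side by side. The labels do not say how the cells were obtained, whether they are 1 line or several animals, or what vehicle the cells without DEX received. The series design speaks of 3 replicates of each condition, and the table holds 1 column for each. No spread between replicates can therefore be had from it, and every difference below is a difference between 2 columns, with no p-value.

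Glucocorticoids enter the cell and bind GR, the product of Nr3c1, which waits in the cytoplasm in a complex with heat shock proteins and immunophilins. The bound receptor moves to the nucleus, where it binds palindromic DNA elements and raises transcription of genes such as Tsc22d3 and Fkbp5. It also lowers the output of inflammatory genes by acting on NF-kappaB and AP-1. In endothelium glucocorticoids are known for damping leukocyte adhesion and cytokine release and for affecting vessel tone and growth.

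The 2 columns were close to each other. Differences were taken as log2(FPKM + 1) with DEX minus log2(FPKM + 1) without, which understates differences of weakly expressed genes. The median difference was -0.0051, and 98.1% of the 11227 genes lay within 1.25-fold. At least 1.5-fold higher with DEX were 77 genes, 0.686% of those measured, and at least 1.5-fold lower were 44, or 0.392%. At 2-fold the counts were 62 (0.552%) and 32 (0.285%), and at 1.25-fold they were 115 (1.02%) and 99 (0.882%). Most of the genes past 1.5-fold were not ordinary messenger RNAs. Rows for microRNA and small nucleolar RNA genes made up 60 of the 77 higher and 34 of the 44 lower genes, although they were 146 of the 11227 measured. In 64 of the genes past 1.5-fold, 1 of the 2 columns was listed at 0.

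A transcript not much longer than a sequenced fragment, or one that shares its sequence with other genes, is hard to quantify by FPKM. The genes were therefore also described after keeping those with a longest annotated transcript of at least 300 nt and less than 10% of their 31-base words found in any other gene, called long and unshared below. There were 8465 of them. Only 3 were at least 1.5-fold higher with DEX (0.0354%) and 2 at least 1.5-fold lower (0.0236%). At 1.25-fold the counts were 23 (0.272%) and 27 (0.319%). Some of these, more of the lower than of the higher genes, passed the 1 FPKM filter only through the column where they were high. The directions of such genes were partly set by the filter. With the columns rescaled by the upper quartile of genes above 0, the 1.25-fold counts became 59 and 11, while the 1.5-fold counts stayed at 3 and 2. The standard deviation of the difference across all 8465 genes was 0.088 on the log2 scale.

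**Figure D1:**
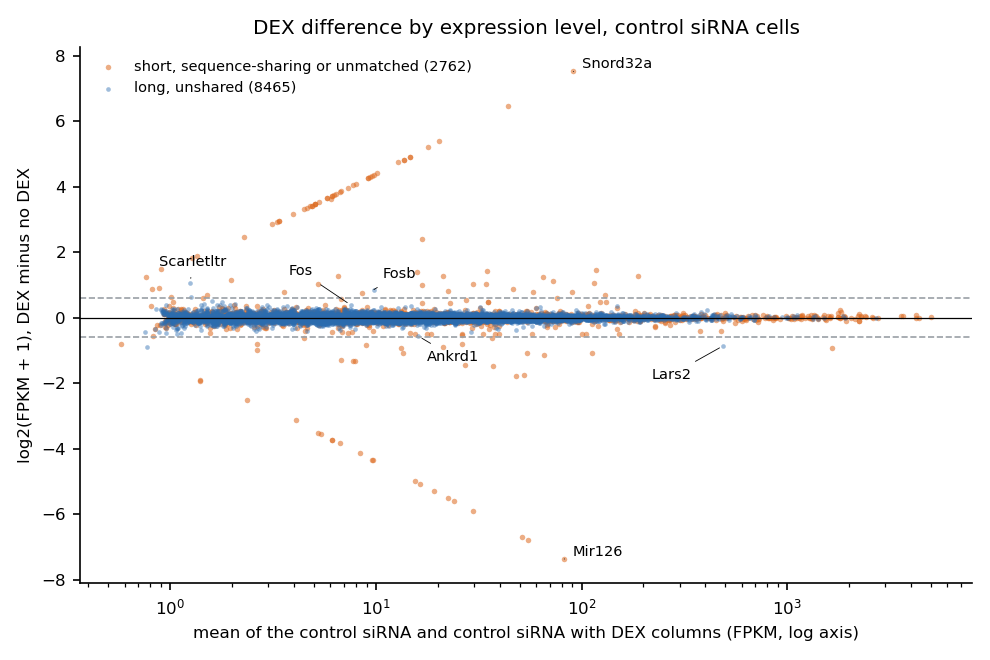
Difference between control siRNA cells with and without DEX, as log2(FPKM + 1), against the mean of the 2 columns in FPKM on a log axis. Each point is 1 of 11227 genes, dashed lines mark 1.5-fold, and almost all points outside them are the orange short, sequence-sharing or unmatched rows, with those listed at 0 in 1 column forming the outer 2 arms.

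Some facts of the whole table bear on these values. The low FPKM values fell on a ladder from which the worth of 1 fragment could be read, and with annotated transcript lengths this gave an estimated 35300000 fragments for control siRNA, 50500000 with DEX, 52400000 for GR siRNA and 42100000 for GR siRNA with DEX. A long and unshared gene thus rested on a median of about 1881 fragments without DEX and 2662 with it, which alone gives a median standard error of 0.044 on the log2 difference. This figure covers counting only, not differences between cultures. Nr3c1, the gene the siRNA targeted, was at 14.4 FPKM in control siRNA cells, 14.3 with DEX, 5.45 in GR siRNA cells and 5.32 with DEX. Its level was thus lower in both GR siRNA columns and nearly equal with and without DEX. The endothelial markers Pecam1 and Cdh5 were at 280.3 and 436 FPKM without DEX and 278 and 415 with it. Markers of other cells summed to 15.4 and 14.0 FPKM for fibroblasts and mural cells (2 of 14 at 1 FPKM or more, Tagln and Acta2) and to 7.86 and 7.82 for lung epithelium (2 of 12, Krt18 and Ager). The leukocyte markers Ptprc and Cd3e were listed at 0, and Cd68, which is not restricted to leukocytes, held nearly all of that list's sum of 178 and 163 FPKM. Lymphatic markers were mixed, with Lyve1 at 373 and 348 FPKM and Prox1 at 0.18 and 0.17.

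The receptor's own induced targets were examined first, since they report on ligand action. Of 40 such genes 32 were measured, and 23 of the 32 lay above the median difference of all genes. Their median stood 0.057 above that of all genes on the log2 scale. In GR siRNA cells 20 of the same 32 lay above that comparison's median, with a group median 0.018 above it. Whether the pairs differ was not tested. In control siRNA cells none of the 32 passed 1.25-fold in either direction, beside 1.02% of all genes higher and 0.882% lower. A list of this size with none past it is near that share, and so are the later lists described that way. Ddit4 and Rgcc did pass on the higher side under the upper quartile scaling, which placed 174 of all 11227 genes there. The median of the 32 was 0.052 as deposited and 0.145 under that scaling, which moved the median of all genes to 0.083. Among the 26 long and unshared members the median was 0.044, and 0.029 after adjustment for length and GC content. Fkbp5, an immunophilin that sits in the receptor complex and limits its hormone binding, was at 92.2 FPKM without DEX and 94.9 with it, and at 55.9 and 54.1 in GR siRNA cells. Tsc22d3, whose product GILZ dampens inflammation, was at 50.7 and 57.9 FPKM, and at 24.5 and 26.2 in GR siRNA cells. Both marker genes were therefore slightly higher with DEX, by 0.04 and 0.19 on the log2 scale, and both were lower in the 2 GR siRNA columns than in the 2 control siRNA columns. In RNA from whole cultures, a lower level per cell and fewer cells that express a gene cannot be told apart.

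Of the members higher with DEX, Rgcc, Ddit4 and Angptl4 had the largest log2 differences. Ddit4, an inhibitor of mTORC1 signalling, was at 373 FPKM without DEX and 439.9 with it, against 238 and 251 in GR siRNA cells. Rgcc, a regulator of cell cycle progression, was at 8.25 and 9.92 FPKM, against 2.65 and 2.70. Angptl4, a secreted inhibitor of lipoprotein lipase, was at 4.98 and 5.91 FPKM in control siRNA cells and higher, at 12.9 and 12.2, in GR siRNA cells. In log2 terms these were 0.24, 0.24 and 0.21 higher with DEX in control siRNA cells and 0.08, 0.02 and -0.08 in GR siRNA cells. The transcription factor Cebpb, 20% of whose sequence words occur in other genes, was at 53.5 and 60.4 FPKM against 25.9 and 22.5. Per1, a clock gene with glucocorticoid-responsive elements, was at 15.1 and 16.5 FPKM against 7.91 and 7.99. Sgk1, a kinase that regulates ion transport, was among the most abundant members and nearly level, at 645 FPKM without DEX and 664 with it, against 491 and 457.

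Further members higher with DEX were Txnip, Rhob, Cebpd and Cdkn1a, by 0.14, 0.13, 0.10 and 0.10 on the log2 scale. The largest difference of the 32 in size was on the lower side. Lcn2, a secreted iron-siderophore binder, was at 12.2 FPKM without DEX and 10.2 with it, a log2 difference of -0.25, and at 1.26 in both GR siRNA columns. Tnfaip3, a brake on NF-kappaB signalling, was at 3.16 and 2.69 FPKM, and Errfi1, an inhibitor of EGF receptor signalling, at 23.5 and 21.3. Klf9, Map3k6 and Dusp1, all often used as readouts of glucocorticoid action, lay within 0.02 of 0 on the log2 scale. The 8 remaining genes of the list, among them the liver-typical Tat and Pck1, were under 1 FPKM in both columns. The same 32 genes had a median difference of -0.36 between GR siRNA and control siRNA without DEX, a comparison that shares the untreated control column with the one described here.

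**Figure D2:**
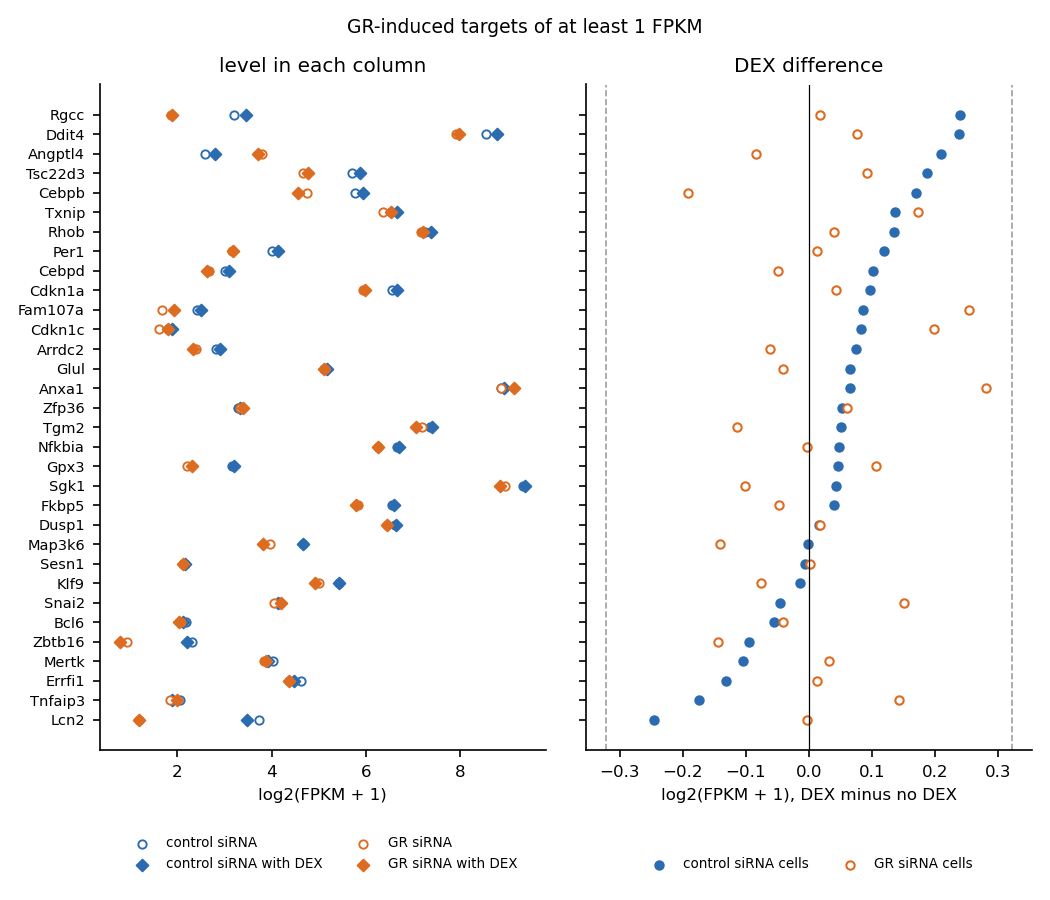
The 32 GR-induced targets of at least 1 FPKM, ordered by their DEX difference in control siRNA cells. The left panel gives log2(FPKM + 1) in each of the 4 columns, and the right panel gives DEX minus no DEX in control siRNA cells (filled) and GR siRNA cells (open), with dashed lines at 1.25-fold; all filled points lie between -0.25 and 0.24, and the shift between blue and orange in the left panel is wider than the shift between circles and diamonds for most genes.

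Promoters of the GR-induced genes were searched for the receptor's element. The windows were the 250 bases before each RefSeq transcription start (GRCm38.p6, the mm10 assembly). The palindrome was searched as GNACANNNTGTNC and the half-site as AGAACA, both on either strand, and a palindrome can contain a half-site. Of the 32 measured GR-induced genes 26 had a window, and 4 of the 26 held the palindrome (Sgk1, Fam107a, Txnip and Map3k6), beside 0.296% of the 8440 measured genes with a window. The half-site was in 6 of the 26 (Tsc22d3, Sgk1, Tnfaip3, Bcl6, Fam107a and Gpx3), beside 12.4%. A gene with several starts has several windows. The 4 genes with a palindrome differed with DEX by 0.04, 0.09, 0.14 and -0.00082 on the log2 scale in the order given. The windows of Sgk1 and Tsc22d3 are printed as an example of each motif. Sgk1 has 6 starts in the table. In genomic order, the window of start 5, chr10:21993640-21993889 on the plus strand, holds 1 palindrome, 188 bases before the start and shown in capitals. It also holds half-sites at -242, -189 and -180, not marked as such, and those at -189 and -180 overlap the palindrome. The windows of starts 1 and 4 hold a half-site at -195 and -13. Tsc22d3 has 3 starts, and the window of 1 of them, chrX:140600523-140600772 on the minus strand, holds 1 half-site, 185 bases before the start.
Sgk1: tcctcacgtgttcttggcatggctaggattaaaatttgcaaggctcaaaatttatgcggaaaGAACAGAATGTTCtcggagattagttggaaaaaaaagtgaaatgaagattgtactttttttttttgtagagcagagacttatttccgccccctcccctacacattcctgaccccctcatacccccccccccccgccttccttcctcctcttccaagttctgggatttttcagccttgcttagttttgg
Tsc22d3: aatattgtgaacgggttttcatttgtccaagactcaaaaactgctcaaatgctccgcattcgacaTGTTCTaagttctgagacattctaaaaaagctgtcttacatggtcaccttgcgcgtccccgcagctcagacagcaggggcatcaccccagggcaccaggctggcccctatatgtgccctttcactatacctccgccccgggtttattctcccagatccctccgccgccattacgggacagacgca
The palindrome was present in 0.387% of all 32851 windows and the half-site in 16.1%. The windows of the marker Fkbp5 and of Per1, Ddit4 and Rgcc held neither. A match says only that the letters are there, and elements outside these windows were not searched.

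The receptor and its partners differed little. Of 11 measured genes for GR and its chaperones, 8 lay below the median of all genes. Stip1, the co-chaperone that joins HSP70 to HSP90, was at 201 FPKM without DEX and 184 with it, the largest difference of the group at -0.13. Of 17 measured co-activators and co-repressors, 14 lay below the median of all genes, and their median was 0.049 below it, as it was 0.050 below it in GR siRNA cells. Nrip1, a co-repressor of nuclear receptors, was at 3.66 and 3.19 FPKM in control siRNA cells and at 4.53 and 3.87 in GR siRNA cells.

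Targets of repression by GR, mostly inflammatory genes, had the lowest median of any list apart from the histones and the 2 measured fibroblast and mural markers. Of 25 genes 16 were measured, and 14 of the 16 lay below the median of all genes, with a group median 0.081 below it. In GR siRNA cells 5 of the same 16 lay below that comparison's median and 11 above it, with a group median 0.029 above it. Only Ccl2 passed 1.25-fold, beside the 0.882% of all genes that did so on the lower side. Ccl2, the chemokine that attracts monocytes, was at 33.7 FPKM without DEX and 24.4 with it, and at 41.6 and 47.9 in GR siRNA cells. It was thus lower with DEX in the first pair, by -0.45, and higher in the second, by 0.20.

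All other members had smaller differences in control siRNA cells, and 2 of them, Cxcl2 (1.155 and 1.43 FPKM) and Icam1, were higher with DEX. Ccl5, a chemokine for T cells, was at 4.69 FPKM without DEX and 3.83 with it, against 6.35 and 7.96 in GR siRNA cells. Cxcl10, an interferon-induced chemokine, was at 6.94 and 6.02 FPKM against 3.66 and 4.76. Selp, the adhesion receptor P-selectin that is stored in Weibel-Palade bodies, was at 33.0 and 28.4 FPKM against 50.3 in both GR siRNA columns, with 12% of its sequence words found elsewhere. Il6 was at 2.18 and 1.95 FPKM against 2.12 and 3.68, so that its larger difference was in GR siRNA cells. The adhesion molecules Icam1, Sele and Vcam1 were close between the control siRNA columns, at 39.96 and 40.4, 11.04 and 10.7, and 18.9 and 18.0 FPKM. Among 18 subunits and regulators of NF-kappaB 10 lay below and 8 above the median of all genes. None of them passed 1.25-fold, beside 1.02% of all genes higher and 0.882% lower. Tnf, Il1a and Il1b were under 1 FPKM.

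Interferon-stimulated genes showed a similar split between the cell pairs. In control siRNA cells 21 of 24 measured members lay below the median of all genes, and in GR siRNA cells 10 of the same 24 lay below that comparison's median. The group medians were 0.051 below and 0.015 above. Gbp3, a guanylate-binding protein of cell-autonomous immunity, was at 12.1 and 10.5 FPKM in control siRNA cells and at 11.9 and 11.1 in GR siRNA cells. Ifit3, which binds other IFIT proteins in antiviral complexes and shares 62% of its sequence words, was at 16.02 and 13.7 against 11.3 and 11.9. Zbp1, a sensor of Z-form nucleic acids that is also induced by interferon, was among the 15 largest lower differences, at 5.45 and 3.82 FPKM against 4.80 and 4.19. No member of the list passed 1.25-fold in control siRNA cells, beside 1.02% of all genes higher and 0.882% lower. Whether the pairs differ was not tested.

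Among all long and unshared genes of at least 5 FPKM, 6748 in number, the immediate early genes Fosb and Fos stood highest. Fosb (chr7:19302696-19310051, minus strand), a subunit of the AP-1 transcription factor, was at 6.67 FPKM without DEX and 12.9 with it. It was at 14.1 and 18.3 FPKM in GR siRNA cells, so the treated control siRNA column lay below both. The difference was 0.86 in control siRNA cells and 0.36 in GR siRNA cells. Fos (chr12:85473890-85477273, plus strand), another AP-1 subunit, was at 6.41 and 8.68 FPKM against 6.58 and 8.31, a log2 difference of 0.39 beside 0.30. Both genes were higher with DEX in both pairs of columns. Of the other 17 measured members of the immediate early list, 7 lay above the median of all genes and 10 below, with a median 0.029 below it, and none passed 1.25-fold. Nr4a2, an orphan nuclear receptor, was at 6.92 and 5.93 FPKM against 7.48 and 7.95, and Ier3, a stress-inducible survival factor, at 13.7 and 12.2 against 16.02 and 16.7. The AP-1 partners Jun and Junb were at 47.2 and 49.6 and at 56.5 and 53.5 FPKM in control siRNA cells. Neither Fosb nor Fos holds TGANTCA (AP-1) or TGACGTCA (the cyclic AMP response element) in its 250-base window.

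After these 2 came a long non-coding RNA and several metabolic genes. Neat1, the scaffold RNA of nuclear paraspeckles, was at 129.5 FPKM without DEX and 167 with it, against 108.5 and 122.7 in GR siRNA cells. Malat1, its neighbour on chromosome 19, differed the other way, at 43.9 and 34.6 FPKM against 35.97 and 30.95. Ucp2, a mitochondrial carrier protein, was at 56.2 and 69.9 FPKM against 19.3 and 18.4. Cyp1a1, the main target of the aryl hydrocarbon receptor, was at 12.2 and 15.5 FPKM against 8.45 and 7.45. Ucp2 and Cyp1a1 were thus higher with DEX in control siRNA cells, by 0.31 and 0.33, and not in GR siRNA cells, where the differences were -0.06 and -0.16. Acyp2, an acylphosphatase, was at 12.9 and 16.9 FPKM against 12.0 and 12.7. Depp1, listed under an older clone name that the naming rule left out and named here after its values were seen, was at 9.22 and 11.9 FPKM against 7.36 and 7.93. Depp1 is known as a target of FoxO factors. The remaining genes among the 15 highest were Deb1, Wdfy1, Rab26os, Fzd9, Chchd7, Pddc1, Lbx2, Hcst and Fbxw9, with differences from 0.26 to 0.32, and Lbx2 and Hcst had counting errors of 0.16 and 0.20.

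**Figure D3:**
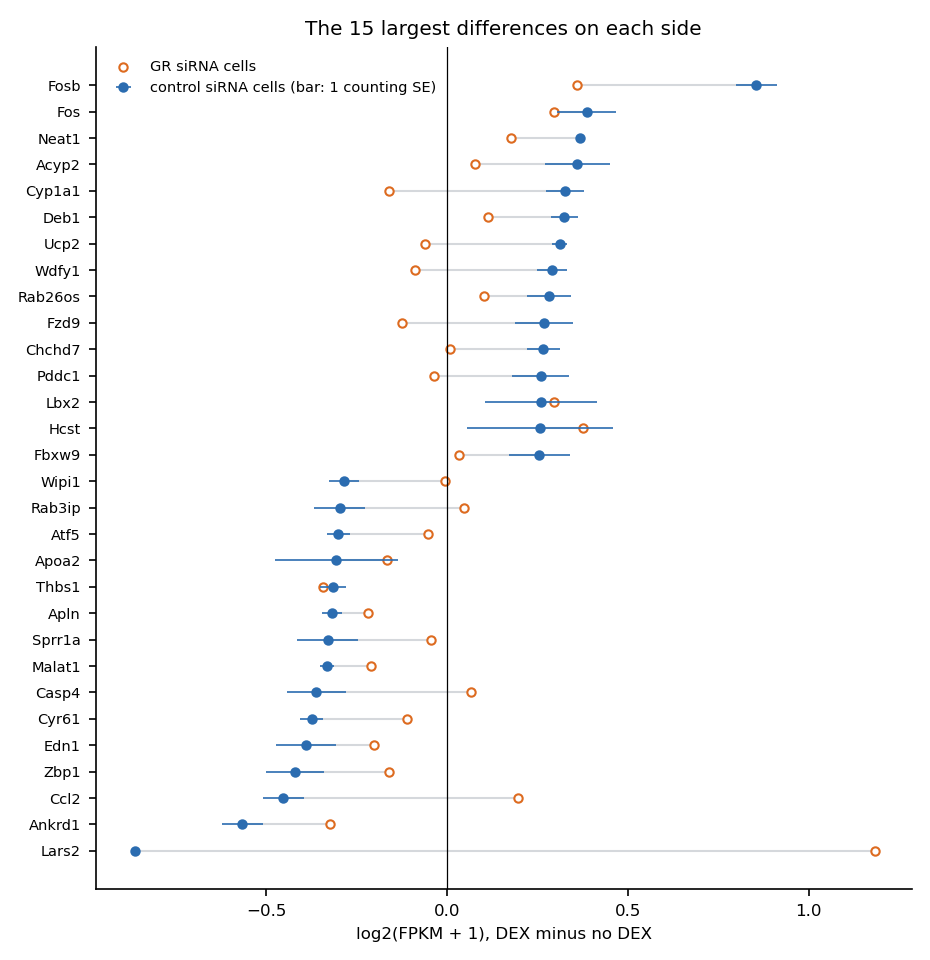
The 15 genes highest and the 15 lowest with DEX among long and unshared genes of at least 5 FPKM, as the log2(FPKM + 1) difference. Filled points are control siRNA cells with 1 estimated counting standard error, and open points are GR siRNA cells. On the same side of 0 in both lie 21 genes, a share that was not counted over all genes. Genes whose 2 points lie far apart include Lars2, Ccl2, Fosb, Cyp1a1, Casp4 and Fzd9, of which Fosb is on the same side in both.

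Among the 15 lowest genes were Ankrd1, Cyr61 and Thbs1, of which the last 2 also stand in the list of matrix and TGF-beta response genes. Ankrd1 (chr19, minus strand), an ankyrin repeat protein and a well-known target of the YAP and TEAD transcription factors, was at 19.4 FPKM without DEX and 12.8 with it. It was at 10.3 and 8.03 in GR siRNA cells, where the difference was -0.32 beside -0.57. Cyr61, now named Ccn1, a secreted matricellular protein and another YAP target, was at 54.4 and 41.7 FPKM against 41.1 and 38.0. Ctgf, or Ccn2, its close relative, was at 41.2 and 33.5 against 33.0 and 29.1, with 20% of its sequence words shared. Thbs1, an inhibitor of angiogenesis, was at 14.9 and 11.8 FPKM and nearly the same in GR siRNA cells at 14.9 and 11.6. All 4 were lower with DEX in both pairs.

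Edn1 and Apln were also among the 15 lowest. Edn1, the vasoconstrictor endothelin-1, was at 7.69 FPKM without DEX and 5.63 with it, against 7.36 and 6.27 in GR siRNA cells. Apln, the tip-cell peptide apelin, was at 42.6 and 33.9 FPKM against 44.9 and 38.4. Adm and Angpt2, which did not pass 1.25-fold, had the next largest differences of the angiogenesis list after Apln and Thbs1. Adm, which encodes the vasodilator adrenomedullin, was at 6.01 and 5.12 against 3.93 and 3.77, and Angpt2, an antagonist of the Tie2 receptor, at 3.499 and 2.84 against 4.70 and 5.33. Each of the lists these genes come from leaned the same way. Of measured members, 17 of 26 matrix and TGF-beta response genes, 14 of 21 angiogenesis genes and 13 of 20 genes of vascular tone and thrombosis lay below the median of all genes. In GR siRNA cells the counts below that comparison's median were 22, 16 and 12. The remaining genes among the 15 lowest were Casp4, an inflammatory caspase, Sprr1a, Apoa2, Atf5, Rab3ip and Wipi1, with differences from -0.36 to -0.29.

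The 250-base windows of the lowest genes were searched for CATTCC, the core of the TEAD element, on either strand. Of the 15 lowest genes 12 had a window, and 3 of the 12 held the word (Ankrd1, Cyr61 and Edn1), beside 12.5% of the 8440 measured genes with a window and none of 9 among the highest genes. These 3 windows are shown because they hold the word, which is in capitals. They are chr19:36119845-36120094 (minus strand), chr3:145649986-145650235 (minus strand) and chr13:42301226-42301475 (plus strand), from the same RefSeq table.
Ankrd1: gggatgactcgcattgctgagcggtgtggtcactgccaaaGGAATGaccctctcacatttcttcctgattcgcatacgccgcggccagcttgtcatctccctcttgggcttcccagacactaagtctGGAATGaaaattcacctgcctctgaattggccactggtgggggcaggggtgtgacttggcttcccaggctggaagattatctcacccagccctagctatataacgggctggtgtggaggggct
Cyr61: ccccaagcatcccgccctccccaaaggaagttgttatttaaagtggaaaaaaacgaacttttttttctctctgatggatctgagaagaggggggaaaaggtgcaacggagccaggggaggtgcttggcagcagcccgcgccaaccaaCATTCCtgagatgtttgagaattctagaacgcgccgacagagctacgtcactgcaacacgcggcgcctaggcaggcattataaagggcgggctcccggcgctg
Edn1: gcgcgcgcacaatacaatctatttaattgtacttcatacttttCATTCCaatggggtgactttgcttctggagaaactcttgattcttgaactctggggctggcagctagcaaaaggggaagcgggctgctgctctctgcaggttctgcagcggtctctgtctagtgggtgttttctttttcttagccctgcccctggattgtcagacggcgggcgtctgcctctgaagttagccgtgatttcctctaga
Ankrd1 has 2 such words, at -210 and -123 from its start, and the others have 1 each, at -103 in Cyr61 and -207 in Edn1. The other words were searched in the same windows. The GR half-site was in 2 of the 12 (Lars2 and Sprr1a) and 1 of the 9 (Hcst), beside 12.4% of measured genes. The AP-1 word was in 1 of the 12 (Sprr1a) and 0 of the 9, beside 5.27%. The cyclic AMP response element was in 0 of the 12 and 1 of the 9 (Fbxw9), beside 3.14%. The GR palindrome was in 0 of either, beside 0.296%. All these counts, with the 3 of 12, are small and are given as a description.

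Lars2, the mitochondrial leucyl-tRNA synthetase, had the lowest difference among the ranked genes and the one that turned most between pairs. It was at 630.3 FPKM in control siRNA cells, 346 with DEX, 153 in GR siRNA cells and 349.6 with DEX. The difference was -0.86 in control siRNA cells and 1.18 in GR siRNA cells, so the 2 columns with DEX were nearly equal and the 2 without DEX were far apart. Rn45s, the 45S ribosomal RNA precursor, moved with it, at 2181, 1139, 577 and 1316 FPKM in the same order. The ratio of Rn45s to Lars2 was 3.46, 3.29, 3.76 and 3.77. Rpph1, the RNA of RNase P, had the same order of columns at 18.8, 8.39, 4.81 and 10.1 FPKM. Rmrp, the RNA of RNase MRP, was at 17.2, 12.2, 1.77 and 10.4, also highest and lowest in the columns without DEX. The part of ribosomal RNA content in the Lars2 values was not tested.

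**Figure D4:**
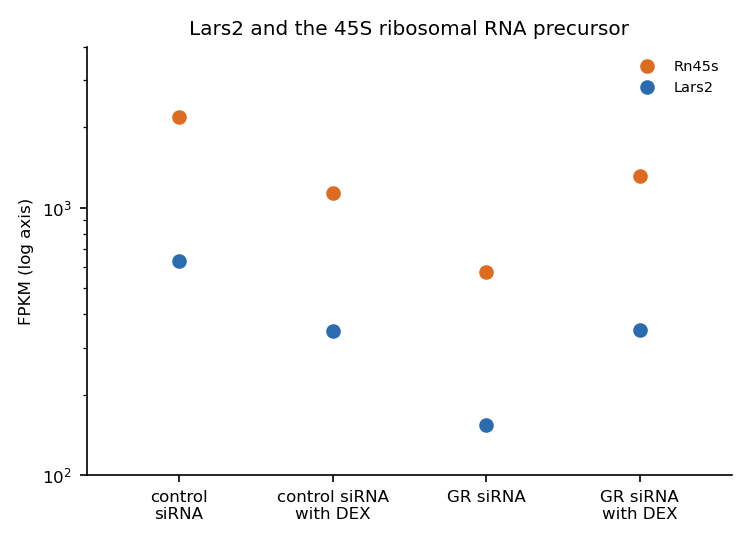
FPKM of Lars2 and Rn45s, the 45S ribosomal RNA precursor, in each of the 4 columns on a log axis. Both are highest in control siRNA cells and lowest in GR siRNA cells without DEX, and the 2 columns with DEX lie between.

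Stress response genes were mostly below the median of all genes in control siRNA cells. Of 24 genes of the integrated stress and unfolded protein responses, 19 lay below the median of all genes, with a group median 0.063 below it. In GR siRNA cells 12 lay below and 12 above. Asns, asparagine synthetase and a target of ATF4, was at 138 FPKM without DEX and 120.4 with it, against 137 and 140.2 in GR siRNA cells. Trib3, a pseudokinase induced by the same factor, was at 17.2 and 14.6 against 15.4 and 13.7, and Slc7a11, the cystine transporter, at 19.0 and 16.2 against 16.3 and 17.0. Atf5, a related transcription factor, was at 57.5 and 46.5 FPKM against 42.3 and 40.7. Of 32 cell cycle genes 23 lay below the median of all genes in control siRNA cells and 23 in GR siRNA cells. The mitotic genes Cenpe, Mki67 and Top2a were at 14.9 and 13.2, 24.6 and 22.7, and 90.1 and 83.4 FPKM. Of 20 growth arrest genes 13 lay above the median in control siRNA cells and 17 above that comparison's median in GR siRNA cells. The group medians were 0.029 and 0.063 above the respective medians of all genes. Cdkn1a, the inhibitor p21, was at 92.8 and 99.2 FPKM against 60.0 and 61.8. None of these genes other than Atf5 is among the 30 ranked genes, and no member of these 3 lists passed 1.25-fold.

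Wnt signalling, which the series title names, differed little with DEX. The pathway passes a secreted ligand to Frizzled receptors and LRP co-receptors, which stop the destruction of beta-catenin. Of 24 ligands 3 were measured, and Wnt9b was the only one above 2 FPKM, at 17.5 without DEX and 19.0 with it, against 10.1 and 10.3 in GR siRNA cells. Of 23 measured receptors and transducers 12 lay above the median of all genes and 11 below. Fzd9 was the largest at 6.32 and 7.82 FPKM against 5.39 and 4.86, a log2 difference of 0.27 beside -0.12. Fzd4, the main endothelial Frizzled, was at 66.0 and 64.8 FPKM against 50.4 and 44.8, and the co-receptors Lrp5 and Lrp6 were at 48.2 and 50.7 and at 10.4 and 9.83 FPKM in control siRNA cells. Ctnnb1, beta-catenin itself, was at 412 and 405 FPKM. Of 8 measured antagonists 6 lay above the median, with Dkk2 at 23.0 and 23.4 FPKM and Frzb at 1.23 and 0.99. The filter of 1 FPKM kept Frzb, Znrf3 and Tle2 only through the column where each was high. Their sides of the median were thus partly set by the filter. Of 8 measured beta-catenin targets 5 lay above the median of all genes. No member of these 4 lists passed 1.25-fold as deposited, beside 1.02% of all genes higher and 0.882% lower. Fzd9 alone did so under the upper quartile scaling.

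**Figure D5:**
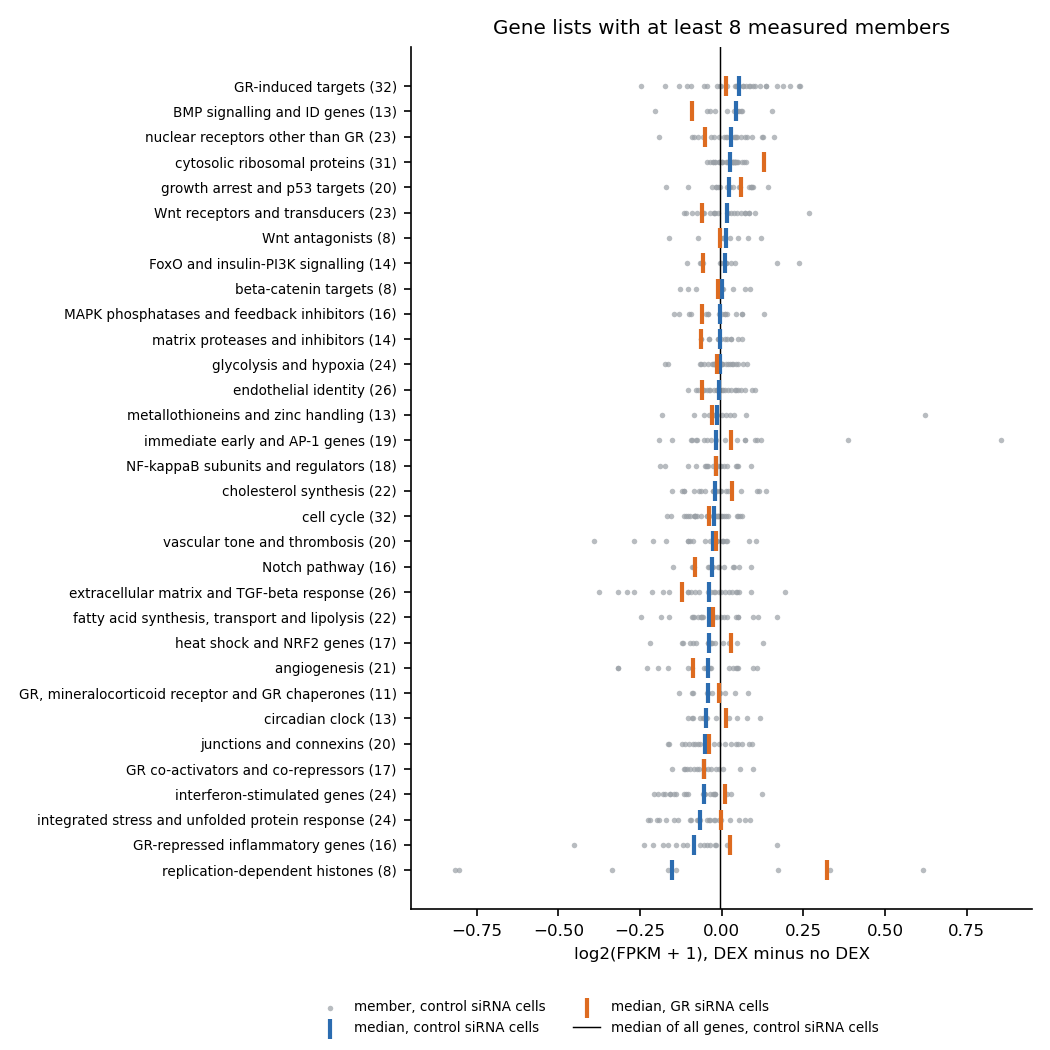
Gene lists with at least 8 measured members (number in parentheses), ordered by their median log2(FPKM + 1) difference with DEX. Grey points are members and blue bars medians in control siRNA cells, orange bars are medians in GR siRNA cells, and the vertical line is the median of all genes; GR-induced targets lie furthest right of the line, and histones, the GR-repressed inflammatory genes and the stress response furthest left.

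The DEX differences of the 2 pairs of columns, which share no column, had almost no rank correlation across genes. Over the 8393 long and unshared genes measured in both, Spearman's rho was 0.046, as a description across genes that are not independent. GC content went with the DEX difference in opposite directions, at rho 0.25 in control siRNA cells and -0.33 in GR siRNA cells. The part of GC content and of counting error in the low value was not tested. In GR siRNA cells 36 of 8534 long and unshared genes were at least 1.25-fold higher with DEX (0.422%) and 22 were lower (0.258%). Of the 23 genes 1.25-fold higher in control siRNA cells, 15 were also higher in GR siRNA cells, 1 of them by 1.25-fold. Of the 27 lower genes 16 were also lower, 2 of them by 1.25-fold. Some of the 23 and of the 27 passed the 1 FPKM filter only through the column where they were high. How many of all long and unshared genes lay on the same side in both pairs was not counted, so no agreement is read from these counts. For scale, GR siRNA against control siRNA without DEX, which shares the untreated control column, placed 648 of 8546 genes at least 1.25-fold higher (7.58%) and 712 lower (8.33%).

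Transcript length and base composition moved with the DEX difference. Over the 6748 genes of at least 5 FPKM, rho was -0.24 with the longest transcript and 0.25 with its GC content in control siRNA cells, and -0.34 and -0.33 in GR siRNA cells. The shortest 20% of transcripts had a median difference of 0.014 and the longest 20% had -0.039. The 20% lowest in GC content had -0.023 and the 20% highest had 0.026. Group medians of this size, such as the 0.057 of the GR-induced targets, are therefore of the order of the shifts that go with length and GC. Adjusted medians of 4 groups are given in the closing section.

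The largest differences of all were in short RNAs listed at 0 in 1 column. Snord32a, a small nucleolar RNA that lies within a ribosomal protein gene, was listed at 0 without DEX and at 183 FPKM with it, and at 175.5 and 108.2 in GR siRNA cells. Snord96a, Mir3060, Mir7068 and Mir5133 were likewise listed at 0 without DEX and at 87.6, 40.7, 35.7 and 29.2 FPKM with it. Mir126, the endothelial microRNA gene inside Egfl7, was listed at 165 FPKM without DEX and at 0 with it, and at 73.7 and 45.4 in GR siRNA cells. Its host gene Egfl7 was level, at 521 and 516 FPKM. Mir1943, Mir6955, Mir6966 and Mir343 were at 109.9, 102.3, 59.1 and 47.8 FPKM without DEX and listed at 0 with it. Of these 10 rows, 4 were listed at 0 in both GR siRNA columns. The Mir126 row shows how short these features are. Its hairpin in the RefSeq table (GRCm38.p6), chr2:26591357-26591429 on the plus strand, is 73 nt, and the mature miR-126a-3p, chr2:26591402-26591423, is 22 nt. The seed, bases 2 to 8 of the mature strand, is in capitals.
Mir126a hairpin: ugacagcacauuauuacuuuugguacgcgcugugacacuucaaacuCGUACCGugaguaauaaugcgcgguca
miR-126a-3p: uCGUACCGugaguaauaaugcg
The values describe fragments assigned to the hairpin's place in the genome, not mature microRNA. The long and unshared genes past 1.5-fold were also sparse apart from Fosb and Lars2. Scarletltr, a long non-coding RNA, was at 0.45 FPKM without DEX and 2.05 with it, on an estimated 5 and 32 fragments. Mt3, a metallothionein, was at 0.78 and 1.74 FPKM, on an estimated 15 and 47, and at 1.46 and 0.84 in GR siRNA cells. Tmem190 was at 1.30 and 0.24 FPKM, on an estimated 27 and 7. The filter of 1 FPKM kept Scarletltr, Mt3 and Tmem190 only through the column where each was high, so their directions were partly set by the filter.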

How the data were processed

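RNA sequencing was deposited by the authors as 1 table of FPKM per gene, with 1 column for each of 4 conditions, made with TopHat2 and Cuffdiff on mm10 per the submitters' processing notes. Versions, annotation, strand setting and replicate handling were not given in the sources used here. Strand being unknown, reads of overlapping genes cannot be told apart. The columns Control_DEX and Control_siRNA were compared as log2(FPKM + 1), for genes of at least 1 FPKM in either, with no test, so the limma fit planned for replicate columns was not used. No column was left out. Genes were matched to GENCODE M21 by symbol (22694) or older symbol (917), and 386 had no match. Fragment depth was estimated from values under 0.1 FPKM, where 1287 of 1781 ratios between the columns lay within 0.5% of a quotient of whole numbers up to 6. These depths are estimates.

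The genes and 37 lists were chosen with earlier results of these data known. Named genes are Nr3c1, Fkbp5, Tsc22d3, the 15 largest differences on each side among long and unshared genes of at least 5 FPKM (no predicted genes or clone names), the 5 largest on each side before those criteria, up to 4 members of each list, and any GR-induced, Wnt or marker gene. Named outside this rule, after their values were seen, are Depp1, Il6, Cxcl2, Tnf, Il1a, Il1b, Sele, Icam1, Vcam1, Jun, Junb, Egfl7, Rn45s, Rpph1 and Rmrp. The same holds for the long and unshared genes past 1.5-fold. Alternatives were a pseudocount of 0.1, no filter or 5 FPKM, upper quartile scaling, centring and long unshared genes only, and 2 added after seeing the data. Python 3.11.15, pandas 2.3.3, numpy 2.4.6 and statsmodels 0.14.6 were used.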

Additional observations from a re-analysis of the deposited data

Results flagged for a closer look

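Lars2 was lower with DEX in control siRNA cells (630.3 to 346 FPKM) and higher with DEX in GR siRNA cells (153 to 349.6 FPKM). The difference between the 2 log2 differences was -2.05. It is listed because the only column pair of each kind moved in opposite directions, and the difference was not tested. Rn45s moved with Lars2 in all 4 columns, and its part in these values was not tested.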

How the results depend on the processing

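Counts of genes past 1.5-fold and 2-fold, and the rank correlation between the 2 pairs of columns, stayed within 1.5 times or within 0.1 of their values under the other pseudocount, both filters, both upper quartile scalings and centring. The counts moved when only long and unshared genes were kept, while the rank correlation stayed within 0.1, at 0.046. The counts were then 3 higher and 2 lower at 1.5-fold and 1 higher and 0 lower at 2-fold, by construction, since the short and sharing genes were removed. An added adjustment of these genes for length and GC content was fitted to the control siRNA pair only and accounted for 7.50% of the variance. With it the counts were 2, 2, 1 and 0. The adjusted group medians were 0.029 for GR-induced targets, -0.085 for GR-repressed inflammatory genes, -0.090 for interferon-stimulated genes and -0.062 for the stress response. They cover long and unshared members only, whose unadjusted medians were 0.044, -0.086, -0.083 and -0.067 in the same order. Upper quartile scaling over genes above 0 raised the median of all genes to 0.083 and turned the sign of most group medians that were below 0, for example to 0.032 for interferon-stimulated genes and 0.027 for the stress response, while scaling over genes of at least 1 FPKM in all columns left the median of all genes at 0.0026. Counts of members above or below the median of all genes are given for this reason. No paired analysis was possible because the columns carry no replicate numbers, and leaving out a replicate was not possible with 1 column per condition. Differences between cultures could not be estimated, and the depth limits genes near 1 FPKM most.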

Other observations

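Metabolic groups differed little with DEX in control siRNA cells, and no gene named in this paragraph passed 1.25-fold in the columns as deposited. Of 22 measured genes of fatty acid synthesis, transport and lipolysis 13 lay below the median of all genes. The desaturases Scd1 and Scd2 were at 11.1 and 138 FPKM without DEX and 9.20 and 121.3 with it, against 26.9 and 203 without DEX and 26.9 and 199.9 with it in GR siRNA cells. Of 22 cholesterol synthesis genes 15 lay below the median in control siRNA cells, and 5 did so in GR siRNA cells. Nsdhl, a sterol dehydrogenase, was at 9.16 and 8.15 FPKM against 10.9 and 11.6. The 24 genes of glycolysis and hypoxia split evenly, 12 above and 12 below, with the hexokinase Hk2 at 3.77 and 3.24 FPKM and the hypoxia-inducible Ndrg1 at 51.4 and 45.8. Of 14 genes of FoxO and insulin signalling 9 lay above the median, led by Ddit4. Of 17 heat shock and NRF2 genes 13 lay below it, with Hmox1, heme oxygenase 1, at 346 and 318 FPKM against 241 and 245, and Nqo1, a quinone reductase, higher at 118 and 128 against 114 and 131. Of 31 cytosolic ribosomal protein genes 22 lay above the median in control siRNA cells and 31 in GR siRNA cells, with group medians 0.031 and 0.136 above the respective medians of all genes.

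Among groups that describe the endothelial state, identity genes split evenly. Of 26 endothelial identity genes 13 lay above and 13 below the median of all genes, with the transcription factor Sox18 at 513 and 551 FPKM without and with DEX, and the VEGF receptor Flt1 at 78.9 and 73.5. Of 20 junction genes 13 lay below, with the connexin Gja1 at 33.6 and 29.9 FPKM against 21.5 and 19.5. Of 16 Notch pathway genes 11 lay below in control siRNA cells and 15 in GR siRNA cells, with the effector Hes1 at 65.5 and 59.1 FPKM against 65.8 and 60.1. Of 13 BMP and ID genes 9 lay above in control siRNA cells and 2 in GR siRNA cells, with Smad6, an inhibitor of BMP signalling, at 102 and 114 FPKM against 82.5 and 77.4. Of 23 nuclear receptors other than GR 15 lay above, with the retinoic acid receptor Rara at 17.7 and 19.9 FPKM against 17.4 and 16.2. The 16 MAPK phosphatases and feedback inhibitors split into 8 and 8, with Spry2 at 27.9 and 25.1 FPKM. The 14 matrix proteases and inhibitors split into 7 and 7. Of 13 clock genes 9 lay below, with Bhlhe40, a repressor of the clock, at 74.0 and 68.9 FPKM and Per1 above. Of 13 metallothionein and zinc genes 6 lay above and 7 below, with Mt2, 58% of whose sequence words are shared, at 82.5 and 72.5 FPKM against 49.2 and 53.9. Of 26 replication-dependent histone genes 8 were measured, 7 of them sharing at least 10% of their sequence words. In control siRNA cells 2 of the 8 passed 1.25-fold on the higher side and 3 on the lower, beside 1.02% and 0.882% of all genes. In GR siRNA cells 8 of 8 lay above the median of all genes. Hist1h2ae was at 0.59 and 1.43 FPKM against 1.08 and 1.52, and Hist1h4d at 3.63 and 1.65 against 1.06 and 2.48. The filter of 1 FPKM kept Hist1h2ae only through the column where it was high. The same holds for Hist1h3b and Hist1h4c, which were lower with DEX by -0.82 and -0.33 on the log2 scale. The directions of these genes, and so the counts past 1.25-fold, were partly set by the filter.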
